A study of Arabidopsis thaliana with 10 samples.

Results

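OPR3 (AT2G06050, chromosome 2, probe set 265530_at) encodes a peroxisomal 12-oxophytodienoate reductase, and it was followed here over the 10 arrays as 1 gene among the 22746 non-control probe sets of the Affymetrix ATH1 array. It was selected on these measurements: it was lower in the *oxt6* mutant than in both other groups, and higher in the complemented plants than in the wild-type. Its levels in those groups are therefore a description, and no test of them is given. The annotation table used here does not list the probe set, which was paired with its locus through the study's own supplementary gene list.

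Jasmonates are lipid-derived hormones of the wound and defense responses and of stamen development. Their synthesis begins in the chloroplast, where a polyunsaturated fatty acid is oxygenated and cyclized to 12-oxophytodienoic acid. This intermediate moves to the peroxisome, where OPR3 reduces its ring before the side chain is shortened by beta-oxidation. The isoleucine conjugate of jasmonate is the form bound by the receptor COI1, which releases transcription factors such as MYC2, MYC3 and MYC4 from their JAZ repressors. OPR3 is itself known as a gene induced by jasmonate, wounding and touch in leaves.

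The *oxt6* mutant carries a T-DNA insertion in At1g30460, the gene for the polyadenylation factor subunit AtCPSF30, and it lacks both the smaller AtCPSF30 protein and a larger protein of the same gene (3 arrays). The complemented plants were *oxt6* plants with a genomic transgene for the smaller protein only, under the gene's own upstream region, in 2 independent transformants called line 5 and line 6 (4 arrays, 2 of each line). The wild-type plants were of the Columbia background (3 arrays). All were leaf samples of untreated plants kept in soil for 30 days at 22 to 26 °C with 8 h of light and 16 h of dark, each sample pooled 10 to 15 plants, and the preparations with the best RNA were chosen for the arrays. The pools were labelled as biological replicates, and whether each came from a separate planting is not given in the sources used here. The p-values below therefore measure the spread between these pools. In the comparisons of groups the 4 complemented arrays shared a mean, so that spread includes the gap between line 5 and line 6. This holds for *oxt6* minus the wild-type too, and only 2 transformants stand behind the complemented plants. For OPR3 the SD within groups was 0.41 on the log2 scale. By group it was 0.25 in *oxt6*, 0.14 in the wild-type and 0.58 in complemented plants.

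Several facts of the arrays touch what follows. The probe set of At1g30460 reads the larger transcript only and was dim everywhere, at 27.1 to 54.7 in *oxt6*, 16.0 to 18.7 in complemented plants and 38.7 to 71.2 in the wild-type, so it could not serve as a check of the mutation. The signal of the 3′ control probe sets over the 5′ ones (actin, GAPDH and ubiquitin, mean log2), a sign of RNA or labelling quality, was 1.09, 2.88 and 2.75 on the *oxt6* arrays, between -0.05 and 0.10 on the complemented arrays, and 1.998 to 2.37 on the wild-type arrays. It therefore separated the complemented arrays from all others, and its part in the results was not tested beyond a fit that carried it as a covariate. Within groups only the *oxt6* arrays spread widely in this signal, so that fit leans on *oxt6* replicate 1. In comparisons with the complemented plants the signal and the group cannot be told apart. Calls lost or signs turned under the covariate there decide nothing. The leaf marker RCA, rubisco activase, read 3350.6, 711.7 and 630.9 in *oxt6* (mean 1564) and 1503.9, 1569 and 1139.6 in the wild-type (mean 1404). It averaged 7004 in complemented plants. By limma its difference in *oxt6* minus the wild-type was -0.28 (adjusted p = 0.688), and -1.05 (adjusted p = 0.00139) without *oxt6* replicate 1. Its difference in the complemented plants minus the wild-type was 2.32 (adjusted p = 3.65e-04), and -0.55 (adjusted p = 0.165) with that covariate, so it was high on the same arrays as OPR3, and its part in the results was not tested. CLV3 of the shoot apex stayed between 17.7 and 36.5 on all arrays and EXPA7 of root hairs between 16.0 and 56.9, near the deposited floor of 16. Of the 30 genes listed as markers of leaf, root, flower or seed, only these 3 could be paired with a probe set here.

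On the *oxt6* arrays OPR3 had intensities of 111.7, 148.5 and 107.9 (mean 122.7 ± 22.4, SD, n = 3). On the complemented arrays the values were 3727.8 and 3439.0 in line 5 and 1764.6 and 1792.7 in line 6 (mean 2681 ± 1049, SD, n = 4). On the wild-type arrays they were 661.1, 582.5 and 703.0 (mean 649 ± 61.2, SD, n = 3). No array of one group reached the range of another, and the order of the levels was *oxt6*, wild-type, line 6 and line 5, each step wider than the spread within the groups on either side of it. Even the lowest *oxt6* value stood 6.74 times above the floor of the file, so the low level in the mutant was not a floored reading.

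**Figure D1:**
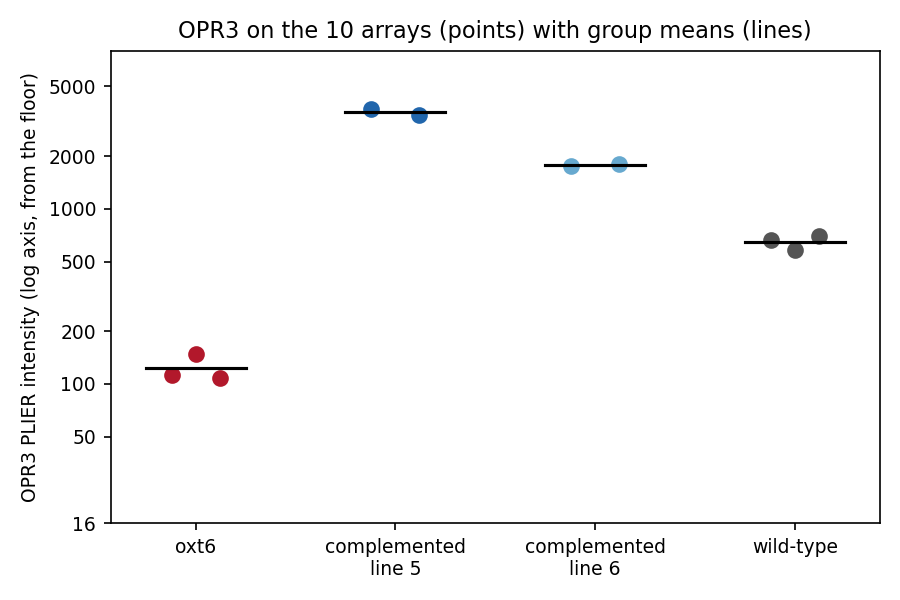
OPR3 intensity on each array (points) with group means (lines), on a log axis that starts at the floor of the file. The 3 *oxt6* arrays sit between 107.9 and 148.5, below all other arrays, and the complemented line 5 arrays stand highest.

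On the log2 scale OPR3 was -2.40 (SE 0.29) in *oxt6* minus the wild-type, and the wild-type mean was 5.29 times the *oxt6* mean. Only 29 of the 11373 probe sets compared had a more negative difference in that contrast. In *oxt6* minus the complemented plants the difference was -4.37 (SE 0.27), a 21.9-fold gap in mean intensity, and 1 probe set had a more negative one. In the complemented plants minus the wild-type the difference was 1.96 (SE 0.27), a mean 4.13 times as high, and 850 probe sets had a larger positive one. These comparisons share groups, so they are not independent of each other. Because these are leaf extracts, fewer cells with the transcript and less transcript per cell cannot be told apart.

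The group order that OPR3 was selected for, every *oxt6* array below every wild-type array and every wild-type array below every complemented array, was shown by 462 of the 11373 probe sets, or 4.06%. The opposite order was shown by 596, or 5.24%. With a difference of at least 2-fold at both steps the order was shown by 38 probe sets, OPR3 among them. The others included CYP83B1, an enzyme of indole glucosinolate synthesis, APX1, the cytosolic ascorbate peroxidase, and GRP7, a glycine-rich RNA-binding protein of the circadian system. Of these 38, OPR3 had, on the values it was selected by, the most negative difference from the wild-type in *oxt6* (log2 -2.40, against -2.02 for the next, 253875_at). Several had a larger excess over the wild-type in the complemented plants, up to a log2 of 2.94 for 255786_at.

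The difference between the complemented lines was not part of the selection. OPR3 was higher in line 5 than in line 6 by a log2 of 1.01 (SE 0.19, 95% confidence interval 0.59 to 1.43), and the line 5 mean of 3583 was 2.01 times the line 6 mean of 1779 (limma, adjusted p = 0.00851). Both line 5 arrays lay above both line 6 arrays. In this comparison 3.52% of the probe sets tested were called higher in line 5 and 1.25% lower, and 264 probe sets had a larger positive difference than OPR3. The call did not hold without any one of the complemented arrays, which leaves 1 array in a line: the adjusted p was then 0.0920 or 0.0651 without a line 5 array and 0.0916 or 0.0885 without a line 6 array, with the log2 difference between 0.95 and 1.07. Against the *oxt6* mean OPR3 was 29.2 times as high in line 5 and 14.5 times as high in line 6, and against the wild-type mean it was 5.52 and 2.74 times as high.

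Of the 24 genes listed for jasmonate synthesis, 5 could be paired with a probe set: DGL, JASSY, OPR3, OPCL1 and AIM1. Allene oxide synthase, the allene oxide cyclases and the lipoxygenases were not analysed here. DGL, a galactolipase proposed to release the fatty acid substrate, stayed between 16.0 and 34.9 on all arrays and fell below the intensity filter. JASSY, a chloroplast envelope protein that exports 12-oxophytodienoic acid, also fell below it, with means of 42.0 in *oxt6*, 69.2 in complemented plants and 34.4 in the wild-type. The *oxt6* range of JASSY (33.6 to 53.2) overlapped the wild-type range (21.9 to 50.3) and lay below the complemented one (58.5 to 80.0).

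OPCL1, the coenzyme A ligase that activates the product of OPR3 for beta-oxidation, read 87.3, 130.6 and 114.5 in *oxt6*, 203.9 and 155.7 in line 5, 113.0 and 105.1 in line 6, and 261.6, 214.5 and 189.2 in the wild-type. It fell by 1.001 on the log2 scale in *oxt6* against the wild-type (SE 0.25, adjusted p = 0.00851), and every *oxt6* array lay below every wild-type array. In this comparison 13.1% of all probe sets tested were called lower and 17.8% higher. The difference in *oxt6* minus the complemented plants was -0.35 (SE 0.23, adjusted p = 0.198), while the complemented plants were lower than the wild-type by a log2 of -0.65 (SE 0.23, adjusted p = 0.0225). The last call was lost without wild-type replicate 1 (adjusted p = 0.0991) or without either line 6 array (adjusted p = 0.0637 and 0.0690), and with the 3′ over 5′ signal as a covariate the difference was -0.03 (adjusted p = 0.959). In line 5 minus line 6 OPCL1 had a log2 difference of 0.70 (SE 0.24, adjusted p = 0.143).

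AIM1, a multifunctional protein of peroxisomal beta-oxidation, behaved differently. Its intensities were 256.1, 152.8 and 173.9 in *oxt6*, 817.6 and 754.3 in line 5, 1143.5 and 1109.5 in line 6, and 183.6, 222.9 and 175.0 in the wild-type. It was lower in *oxt6* than in the complemented plants by a log2 of -2.31 (SE 0.22, adjusted p = 1.64e-06), where 38.0% of all probe sets were called lower and 32.6% higher. It was higher in the complemented plants than in the wild-type by 2.28 (SE 0.22, adjusted p = 1.88e-06), where 39.1% of all probe sets were called higher and 33.3% lower. Between *oxt6* and the wild-type the arrays overlapped and the difference was -0.02 (SE 0.23, adjusted p = 0.949). Over the 2 synthesis genes tested besides OPR3, 1 fell and 1 was not called in *oxt6* against the wild-type, with a median log2 difference of -0.51 beside -0.03 over all probe sets. Of the other members of the OPR family, only OPR6 was paired with a probe set, and it stayed between 21.4 and 34.5 on all arrays.

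Of the genes that conjugate or turn over jasmonate, 6 of 12 were paired with a probe set, and 4 of these passed the filter. JOX2, a jasmonate oxidase that inactivates the hormone by hydroxylation, read 131.1, 283.3 and 226.6 in *oxt6*, 714.7 and 993.6 in line 5, 500.5 and 472.3 in line 6, and 512.9, 526.7 and 825.8 in the wild-type. All *oxt6* arrays lay below all other arrays. JOX2 fell by 1.57 on the log2 scale in *oxt6* against the wild-type (SE 0.33, adjusted p = 0.00298). It fell by 1.65 against the complemented plants (SE 0.31, adjusted p = 3.42e-04). The difference in the complemented plants minus the wild-type was 0.08 (SE 0.31, adjusted p = 0.830). The related oxidases JOX3 and JOX4 had differences from -0.31 to 0.04 in the 3 comparisons of groups, none of which passed the test. ILL6, an amidohydrolase that cleaves the isoleucine conjugate, read 109.0, 129.8 and 95.7 in *oxt6*, 431.9 to 599.4 in complemented plants, and 95.4, 117.7 and 139.3 in the wild-type. Its complemented arrays lay above all others (log2 2.08 against the wild-type, SE 0.19, adjusted p = 1.31e-06), and its *oxt6* and wild-type arrays overlapped (-0.07, SE 0.20, adjusted p = 0.824). JMT, the carboxyl methyltransferase that makes methyl jasmonate, and JOX1 were dim and fell below the filter, with means of 21.6 and 25.2 in *oxt6*, 19.8 and 25.3 in complemented plants, and 24.1 and 30.0 in the wild-type.

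Of the 22 genes of perception and signalling only MYC3 and MYC4 were paired with a probe set, so COI1, the JAZ repressors and MYC2 were not analysed here. MYC4 read 65.3, 50.1 and 49.1 in *oxt6*, 62.1 and 74.0 in line 5, 93.2 and 86.7 in line 6, and 30.3, 27.3 and 28.4 in the wild-type. Its *oxt6* level exceeded the wild-type one by a log2 of 0.90 (SE 0.20, adjusted p = 0.00374), the opposite direction to OPR3. In the other comparisons MYC4 had the directions of OPR3. It was -0.51 in *oxt6* minus the complemented plants (SE 0.18, adjusted p = 0.0226), a call lost with quantile normalization (adjusted p = 0.0598). In the complemented plants minus the wild-type it was 1.42 (SE 0.18, adjusted p = 1.73e-05). MYC3 read 157.6, 60.7 and 59.2 in *oxt6*, 367.8 to 439.7 in complemented plants, and 65.5, 54.1 and 43.0 in the wild-type. It was higher in the complemented plants than in the wild-type by 2.90 (SE 0.29, adjusted p = 2.56e-06), and its difference in *oxt6* minus the wild-type was 0.62 (SE 0.31, adjusted p = 0.146). The *oxt6* array with the highest MYC3 value was the one with the lowest 3′ over 5′ signal among the *oxt6* arrays.

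Of 20 jasmonate-responsive genes, 6 were paired with a probe set and 5 were tested. PDF1.2, an antimicrobial defensin induced by jasmonate together with ethylene, read 1626.6, 1028.4 and 1049.0 in *oxt6*, 218.2 and 240.3 in line 5, 208.6 and 194.8 in line 6, and 1765.3, 1797.9 and 788.1 in the wild-type. Its *oxt6* and wild-type arrays overlapped (log2 -0.17, SE 0.29, adjusted p = 0.694), while the complemented arrays lay below all others (-2.65 against the wild-type, SE 0.27, adjusted p = 3.19e-06). ORA59, the transcription factor that activates PDF1.2, was likewise lower in the complemented plants than in the wild-type (86.2 to 234.5 in complemented plants and 476.9 to 585.4 in the wild-type, log2 -1.81, SE 0.31, adjusted p = 1.74e-04), with a difference of -0.09 (SE 0.33, adjusted p = 0.861) in *oxt6*, where it read 376.0 to 563.5. With the 3′ over 5′ signal as a covariate the call of ORA59 was lost (-1.09, adjusted p = 0.213). The probe set of PDF1.2B can also read near-identical defensins, and its value of -2.64 against the wild-type is uncertain for that reason. HEL, a hevein-like protein, fell by 0.60 on the log2 scale in *oxt6* against the wild-type (SE 0.17, adjusted p = 0.0190). That call was lost without wild-type replicate 1, wild-type replicate 2 or *oxt6* replicate 3 (adjusted p = 0.0681, 0.0675 and 0.0933). By limma HEL was also lower in the complemented plants than in the wild-type (-0.87, SE 0.16, adjusted p = 3.22e-04). THI2.1, a thionin, had a difference of 0.25 in *oxt6* minus the wild-type (SE 0.35, adjusted p = 0.628), and the salicylate methyltransferase gene BSMT1 fell below the filter.

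Counted over these 3 lists, 1 of 11 genes tested was called higher and 2 lower in *oxt6* minus the wild-type (median log2 -0.17, beside -0.03 over all probe sets), where 17.8% of all probe sets were called higher and 13.1% lower. In *oxt6* minus the complemented plants 3 were higher and 4 lower (median -0.12, beside -0.06), where the shares over all probe sets were 32.6% and 38.0%. In the complemented plants minus the wild-type 3 were higher and 4 lower (median -0.15, beside 0.08), where the shares were 39.1% and 33.3%. The lists went different ways there. Of the 5 responsive genes 0 were higher and 4 lower (median -1.81). Of the 4 turnover genes 1 was higher and 0 lower, and of the 2 signalling genes 2 were higher. In *oxt6* minus the complemented plants 3 responsive genes were higher and 0 lower, while 2 turnover and 2 signalling genes were lower and 0 higher. The methods' pairwise test with adjustment did not call OPCL1, JOX2 or HEL in *oxt6* minus the wild-type (adjusted p = 0.0600, 0.0803 and 0.103).

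**Figure D2:**
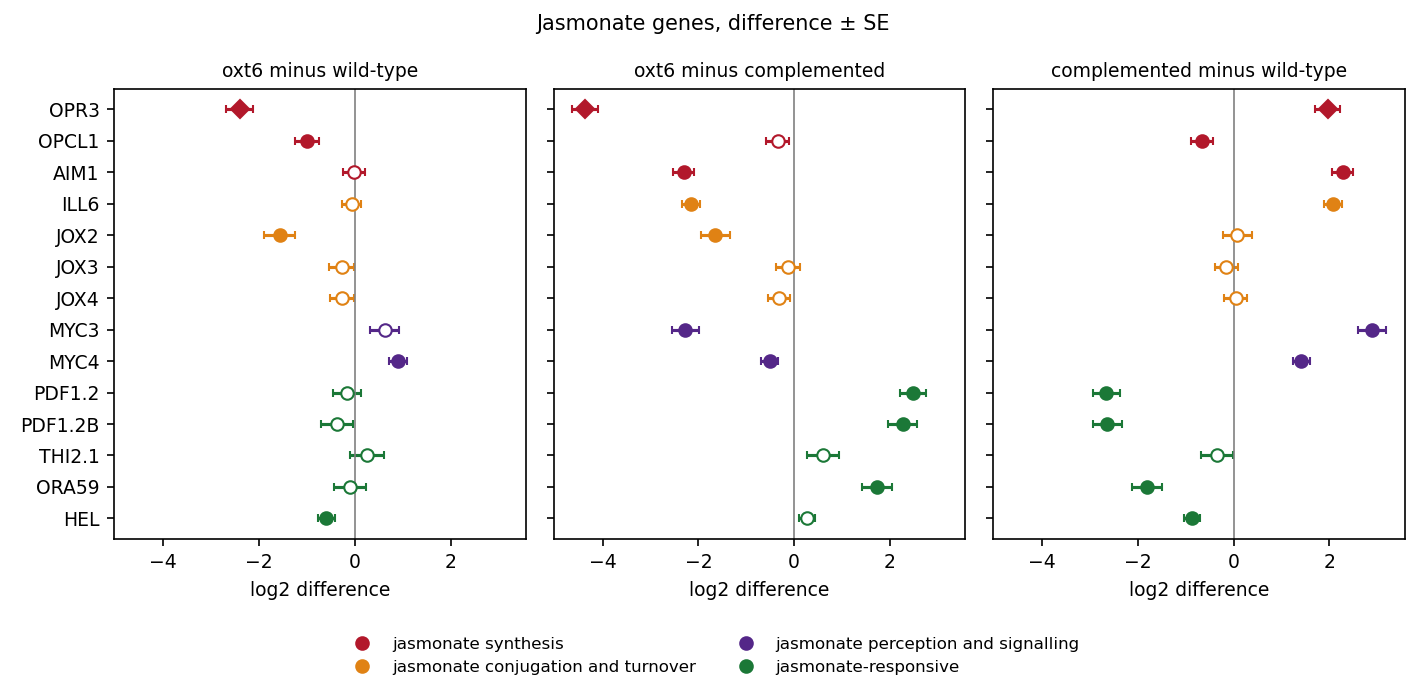
Log2 difference ± SE for OPR3 (diamonds, no test) and the other jasmonate genes tested, in 3 comparisons of groups. Filled circles passed an adjusted p of 0.05 and open circles did not. Among the genes of synthesis, turnover, signalling and response plotted, OPR3, selected for being low in *oxt6*, has the most negative difference in both comparisons of *oxt6*. All 5 jasmonate-responsive genes lie on the opposite side to OPR3 in both comparisons with the complemented plants. Of these, THI2.1 passed in neither comparison and HEL only in the complemented plants minus the wild-type.

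A further 13 genes with a known link to jasmonate were added after the files had been opened, from the names that the annotation offers, and 11 passed the filter. In *oxt6* minus the wild-type 2 were called higher and 1 lower, in *oxt6* minus the complemented plants 5 were higher and 4 lower, and in the complemented plants minus the wild-type 5 were higher and 5 lower. Over all probe sets the shares called higher and lower were 17.8% and 13.1%, 32.6% and 38.0%, and 39.1% and 33.3% in these comparisons. ORA47, a transcription factor that activates jasmonate synthesis genes, read 621.7, 452.0 and 411.4 in *oxt6*, 277.4 and 307.5 in line 5, 97.7 and 90.2 in line 6, and 329.1, 358.2 and 442.7 in the wild-type. It was higher in *oxt6* than in the complemented plants (log2 1.55, SE 0.39, adjusted p = 0.00301), opposite to OPR3, and its *oxt6* and wild-type arrays overlapped (0.38, SE 0.42, adjusted p = 0.521). The call against the complemented plants was lost with the covariate (adjusted p = 0.122) and in the methods' pairwise test after adjustment (adjusted p = 0.0633). GRX480, a glutaredoxin that represses ORA59, read 57.4, 79.0 and 89.3 in *oxt6*, 31.5 to 65.3 in complemented plants, and 891.9, 841.6 and 763.1 in the wild-type. It fell by 3.47 on the log2 scale in *oxt6* against the wild-type (SE 0.25, adjusted p = 2.57e-06), and it stayed low in the complemented plants (-4.19 against the wild-type, SE 0.23, adjusted p = 9.20e-08). RCE1, an enzyme of the cullin modification on which the COI1 ligase relies, rose in *oxt6* against wild-type plants by 2.26 (SE 0.31, adjusted p = 1.51e-04), a call that the methods' pairwise test with adjustment did not make (adjusted p = 0.0555). EIL1, an ethylene transcription factor bound by JAZ repressors, was higher in the complemented plants than in the wild-type by 2.097 (SE 0.16, adjusted p = 5.19e-07), with 0.08 (SE 0.17, adjusted p = 0.760) in *oxt6*.

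None of the 13 listed genes of peroxisomal import and beta-oxidation could be paired with a probe set, so 10 other peroxisomal genes were added in the same way, and 9 passed the filter. In *oxt6* minus the wild-type limma called 0 of the 9, with 2 at an unadjusted p under 0.05, and the methods' pairwise test with adjustment also called 0. In the complemented plants minus the wild-type 7 were higher and 1 was lower (median log2 1.83, beside 0.08 over all probe sets), where 39.1% of all probe sets were called higher and 33.3% lower. HPR, the hydroxypyruvate reductase of photorespiration, read 795.1, 265.8 and 214.2 in *oxt6*, 2271.6 to 3375.3 in complemented plants, and 370.3, 380.0 and 353.3 in the wild-type (2.93 in the complemented plants minus the wild-type, SE 0.35, adjusted p = 9.47e-06). The exception was PEX4, a ubiquitin-conjugating enzyme of peroxisomal import, which was lower in the complemented plants (-2.08, SE 0.26, adjusted p = 1.41e-05). With the 3′ over 5′ signal as a covariate, CAT1 (0.77), CAT2 (0.36), HPR (0.83) and MDAR1 (0.12) lost the call in the complemented plants minus the wild-type, with adjusted p of 0.298, 0.452, 0.0964 and 0.765, and APX3 (-0.067) and CAT3 (-1.16) turned in sign. The *oxt6* array with the low 3′ over 5′ signal, replicate 1, held the highest HPR, CAT3 and RCA values of the mutant. Without it, CAT3 (-1.83), MDAR1 (-0.97), APX3 (-1.42) and HPR (-0.62) were called lower in *oxt6* minus the wild-type, with adjusted p of 6.6e-06, 5.8e-04, 0.0270 and 0.0317, and with array weights the same 4 genes, CAT1 and MDAR4 were.

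Touch and wound genes were read because OPR3 is known to respond to both, and 5 of 12 were paired with a probe set. TCH2, a touch-induced calmodulin-like protein, read 2439.3, 2080.8 and 1743.9 in *oxt6*, 487.0 and 472.1 in line 5, 185.7 and 187.4 in line 6, and 683.0, 663.7 and 624.6 in the wild-type. TCH2 rose in *oxt6* against wild-type plants (log2 1.65, SE 0.35, adjusted p = 0.00321), with every *oxt6* array above every other array, opposite to OPR3. ERF4, a repressor of ethylene and jasmonate responses, read 741.1, 705.9 and 760.6 in *oxt6*, 1454.3 and 1763.9 in line 5, 788.4 and 785.7 in line 6, and 1812.6, 1952.7 and 2078.1 in the wild-type. It fell by 1.40 on the log2 scale in *oxt6* against the wild-type (SE 0.28, adjusted p = 0.00215). WRKY53, a transcription factor of senescence and defense, fell by 1.67 in *oxt6* (SE 0.45, adjusted p = 0.0136), a call lost without wild-type replicate 1 or 2 (adjusted p = 0.0547 and 0.0613) and not made by the methods' pairwise test with adjustment (adjusted p = 0.0846). ZAT10 and ERF104 were not called in *oxt6* against the wild-type (0.69, SE 0.30, adjusted p = 0.0974, and -0.16, SE 0.19, adjusted p = 0.567). In the complemented plants minus the wild-type limma called ZAT10 higher (1.24, adjusted p = 0.00129). It called TCH2 (-1.13), WRKY53 (-1.88) and ERF4 (-0.79) lower, with adjusted p of 0.00718, 0.00136 and 0.0148. ERF104 was not called (0.11, adjusted p = 0.581). Over all probe sets 39.1% were called higher and 33.3% lower. The methods' pairwise test with adjustment did not call TCH2 or ERF4 (adjusted p = 0.0782 and 0.101).

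The excess of line 5 over line 6 that OPR3 showed was read in the same genes. Of the 5 touch and wound genes, 3 were higher in line 5, where 3.52% of all probe sets were called higher: WRKY53 by a log2 of 1.54 (SE 0.36, adjusted p = 0.0281), TCH2 by 1.36 (SE 0.18, adjusted p = 9.42e-04) and ERF4 by 1.02 (SE 0.16, adjusted p = 0.00230). Of the 5 jasmonate-responsive genes, ORA59 was higher by 1.21 (SE 0.23, adjusted p = 0.00802) and PDF1.2B by 1.205 (SE 0.20, adjusted p = 0.00345), while PDF1.2 had a difference of 0.18 (SE 0.35, adjusted p = 0.869). ORA47 was higher by 1.63 (SE 0.23, adjusted p = 0.00124) and CML42, a calmodulin-like protein of herbivore defense, by 1.18 (SE 0.25, adjusted p = 0.0171). Of the 30 genes tested in these lists, OPR3 included, limma called 0 lower in line 5, with 1 at an unadjusted p under 0.05, where 1.25% of all probe sets were called lower. That 0 depended on the setting. A limma fit of only the groups compared called AIM1 (-0.52, adjusted p = 0.00175) and JOX3 (-0.47, adjusted p = 0.0237) lower in line 5. With array weights limma called both lower too (adjusted p = 0.00529 and 0.0446). Both settings also added OPCL1, JOX2, ZAT10, ERF104 and GRX480 as higher, and the first added ILL6. The methods' pairwise test with adjustment called none of the 30 in either direction, and for the 8 that limma called higher its adjusted p ran from 0.0913 (TCH2) to 0.156 (ORA59). Leaving out single complemented arrays ended the calls of WRKY53, CML42 and, for 3 of the 4 arrays, ORA59, with adjusted p up to 0.260, 0.190 and 0.127.

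**Figure D3:**
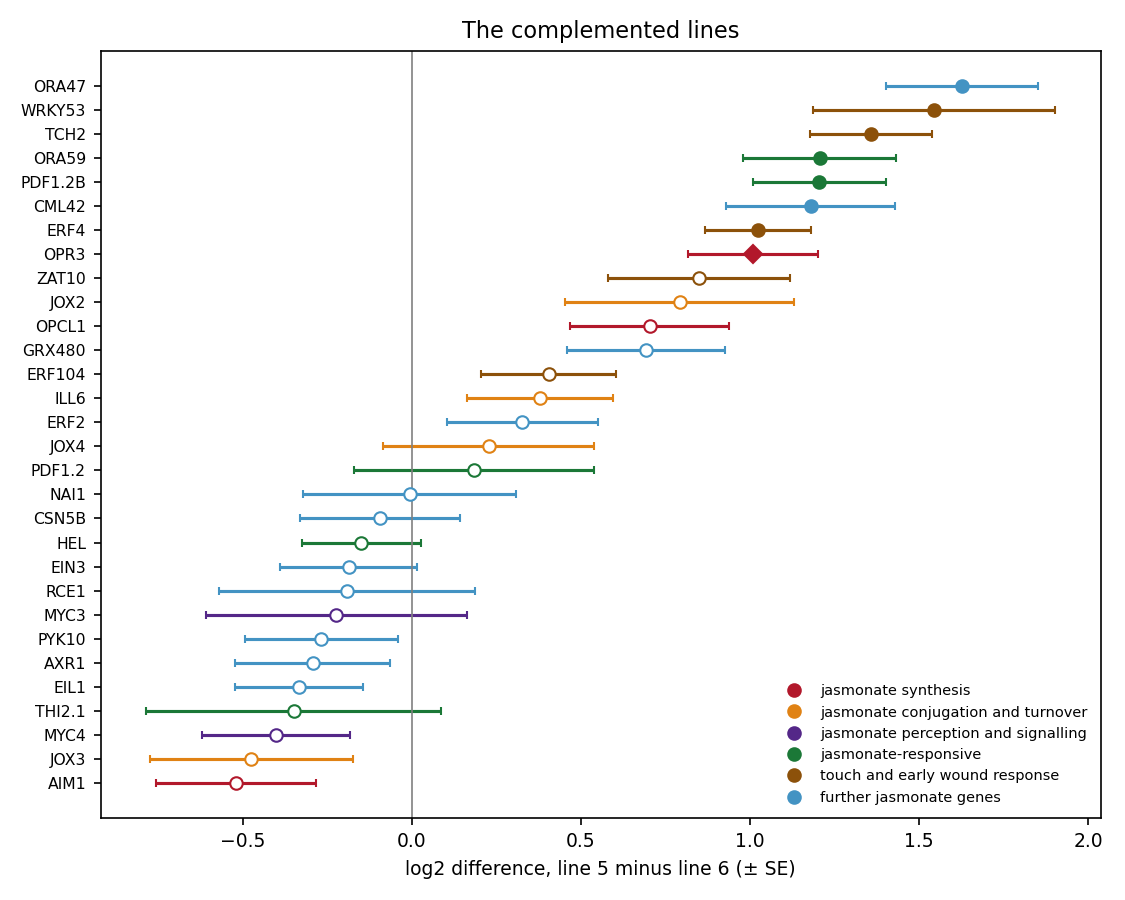
Log2 difference in line 5 minus line 6 (± SE) for OPR3 (diamond) and the jasmonate, touch and wound genes tested, with filled symbols for an adjusted p under 0.05. All 8 filled symbols lie above 0, OPR3 at 1.01 among them.

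The probe sets whose log2 values followed OPR3 most closely over the 10 arrays were then read. Over 3 groups that stand apart, such a correlation reflects the group means, and it is given as a description: 265 of the other 11372 probe sets had a Pearson r over 0.9, and 24 an r over 0.95. The closest was 264107_s_at (r = 0.995), for which no gene is named here. PTI1-4, a protein kinase (r = 0.987), read 54.1, 71.9 and 52.0 in *oxt6*, 192.2 and 189.2 in line 5, 151.4 and 147.2 in line 6, and 94.0, 99.3 and 119.6 in the wild-type. SYP121, a syntaxin of the plasma membrane that acts in penetration resistance (r = 0.980), read 76.4, 63.7 and 55.5 in *oxt6*, 412.2 and 526.6 in line 5, 303.6 and 241.2 in line 6, and 177.7, 165.9 and 139.3 in the wild-type. In both, as in OPR3, the order was *oxt6*, wild-type, line 6 and line 5 with no overlap. Over all 11373 probe sets, 30 showed that order. The line 5 minus line 6 differences were 0.35 for PTI1-4 and 0.78 for SYP121, smaller than the 1.01 of OPR3.

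Of the 10 closest, 2 belong to the glucosinolates, sulfur-containing defense compounds whose synthesis is known to be induced by jasmonate. The share of such genes over all probe sets was not counted. CYP83B1 (r = 0.969) read 365.9, 244.0 and 203.6 in *oxt6*, 2292.8 and 2760.0 in line 5, 2412.1 and 2558.1 in line 6, and 1032.9, 820.0 and 853.6 in the wild-type. GTR1, a transporter of glucosinolates that also carries jasmonates (r = 0.967), read 47.0, 46.6 and 48.9 in *oxt6*, 249.8 and 269.1 in line 5, 300.5 and 232.2 in line 6, and 94.9, 89.2 and 120.8 in the wild-type. Neither gene separated the lines as OPR3 did, with line 5 minus line 6 differences of 0.02 and -0.03. Their deviations from the group means had correlations with those of OPR3 of -0.006 and 0.009, beside 0.89 for 264107_s_at. The probe set 246340_s_at, which the annotation gives to several genes (r = 0.969), had the widest gap between the lines of the 10, at 644.4 and 647.0 in line 5 and 238.0 and 200.5 in line 6. The remaining probe sets were AT3G51450 (r = 0.968), ERD6, a sugar transporter (r = 0.968), 262487_at (r = 0.977) and 266037_at (r = 0.9750). The membership rested on single arrays: 3 of the 10 remained among the closest without *oxt6* replicate 1, and 5 without wild-type replicate 3.

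**Figure D4:**
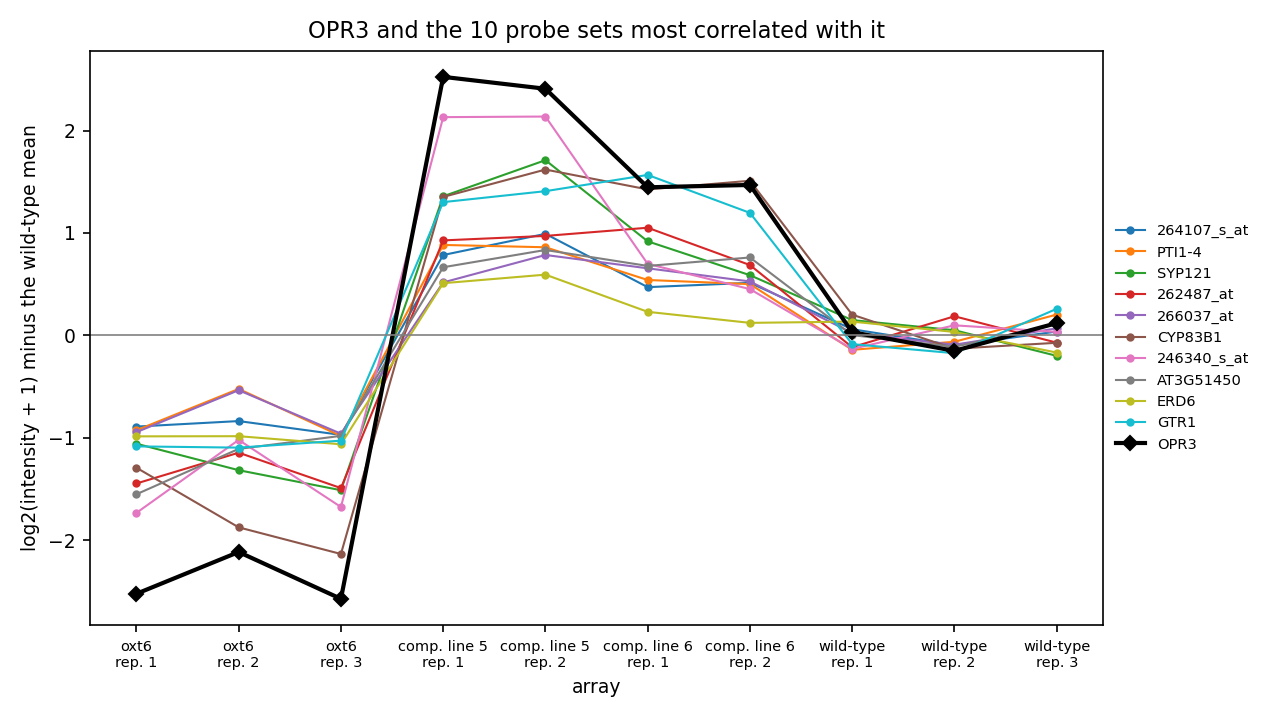
Log2(intensity + 1) minus the wild-type mean of each probe set, on the 10 arrays, for OPR3 (black) and the 10 probe sets most correlated with it. Lines join the values of one probe set, and OPR3 has the widest swing, about a log2 of -2.40 in *oxt6* and 1.96 in the complemented plants on average.

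The genes beside OPR3 on chromosome 2 were read last, among the 8 annotated on each side in the RefSeq order (TAIR10.1). Of these 16 neighbours, 6 were paired with a probe set, AT2G06040 with 2 of them, and all 7 probe sets fell below the filter. Their means ran from 19.3 to 50.7 in *oxt6*, 17.5 to 38.0 in complemented plants and 18.4 to 61.3 in the wild-type. AT2G06040, the nearest one measured, had means of 26.0 and 32.9 in *oxt6*, 26.8 and 29.7 in complemented plants, and 28.3 and 48.5 in the wild-type. The largest ratio of a wild-type mean to an *oxt6* mean among them was 1.48, beside 5.29 for OPR3.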

How the data were processed

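RNA from the leaves of 10 plant pools was hybridized to ATH1 arrays, 3 of *oxt6*, 4 of complemented plants and 3 of the wild-type, as the labels state. The authors summarised the scans with PLIER in ArrayAssist (version not given in the sources used here). The deposited values are linear intensities, none below 16, with 1 value for each probe set and array. Such values keep no read depth, and the number of arrays limits the precision. Probe sets were named from an annotation table for 13436 and, by locus only, from the study's supplementary gene lists for 505 more. No single gene is named here for the other 8805, of which 503 match several genes.

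Control probe sets (64) were left out, values were taken as log2(intensity + 1), and probe sets were ranked by their mean. The brightest 11373 of 22746 went into limma 3.58.1, run in R 4.3.3, with a trended variance and 1 mean per group. For line 5 minus line 6 the lines had separate means and the other groups shared the estimate of the spread. The Benjamini-Hochberg adjustment ran over all probe sets compared, and 0.05 was the threshold. The fit was tested on simulated data. OPR3, the gene lists and the tests were chosen with earlier results of these data known, and the further jasmonate and peroxisomal genes were added after the files had been opened. Named were OPR3, all measured genes of jasmonate synthesis and of the OPR family, up to 6 called members of each other list with PDF1.2, and the 10 probe sets most correlated with OPR3, whose own differences are likewise given without a test. Beyond that rule, the genes JOX3, JOX4, JOX1, JMT, THI2.1, BSMT1, ERF104, the markers and the neighbours were named to account for the members. No sequence was read.

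The alternatives were a replicate block, an offset of 16, quantile normalization, a common median, no filter, the 8000 brightest probe sets, the methods' t-test, fits of only the groups compared, array weights, the 3′ over 5′ signal as a covariate, each line alone, each array left out and an adjusted p under 0.01. The study's own t-tests used an unadjusted p under 0.01, and their adjustment was added here. Plots were drawn with matplotlib 3.10.9 (Python 3.11.15).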

Additional observations from a re-analysis of the deposited data

Results flagged for a closer look

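Between the complemented lines, the difference itself passed the test for OPR3 (line 5 minus line 6, log2 1.01), PDF1.2B (1.205), ORA59 (1.21), TCH2 (1.36), WRKY53 (1.54), ERF4 (1.02), ORA47 (1.63), CML42 (1.18) and PEX4 (1.03), all higher in line 5. In this comparison 3.52% of all probe sets tested were called higher in line 5. By the methods' t-test with adjustment none of these 9 passed, with adjusted p from 0.0913 for TCH2 to 0.156 for ORA59. The lines are independent transformants with 2 arrays each, and transformant and plant pool cannot be told apart. RCE1 had 1 complemented array far from the other 3, with a gap of 0.901 of the group's range: it read 353.2 and 261.8 in line 5 and 352.1 and 342.9 in line 6. Chance flags about 1 in 20 groups of this size, and the cause was not tested.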

How the results depend on the processing

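OPR3 was selected for its directions between the groups, so their persistence is a description and no support. It kept its direction wherever an alternative could change its value. The choice of filter, the methods' t-test and the stricter threshold leave its group differences as they are. So does leaving out an array of a group not compared. With the 3′ over 5′ signal as a covariate, which cannot be told apart from the group there, its difference in *oxt6* minus the complemented plants was -4.78. With line 5 alone it was -4.87 and with line 6 alone -3.86, and in the complemented plants minus the wild-type it was 2.47 with line 5 alone and 1.46 with line 6 alone. Without single arrays it ran from -2.55 to -2.32 in *oxt6* minus the wild-type, from -4.54 to -4.18 in *oxt6* minus the complemented plants, from 1.77 to 2.13 in the complemented plants minus the wild-type, and from 0.95 to 1.07 in line 5 minus line 6. The line difference of 1.01 missed the threshold in the methods' t-test once adjusted (adjusted p = 0.112). Arrays of *oxt6* and the wild-type with the same replicate number deviated from their group means with correlations of 0.10, -0.20 and 0.14, so the numbers were not taken to pair them. With the replicate block OPR3 was -2.40 in *oxt6* minus the wild-type and the line difference had an adjusted p of 0.0139, and among the other named genes the block changed 4 calls.

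Of the jasmonate synthesis genes besides OPR3, the number called in *oxt6* minus the wild-type was 1, and 0 by the methods' t-test after adjustment. In *oxt6* minus the complemented plants it was 1, and 2 with no filter or with line 5 alone. In the complemented plants minus the wild-type it was 2, and 3 with no filter, and 1 with a common median, either form of the methods' t-test, the covariate, line 5 alone, an adjusted p under 0.01, or some single arrays left out (1 to 2). Of the other jasmonate genes, 3 were called in *oxt6* minus the wild-type, 1 by either form of the methods' t-test and 6 with array weights, and 2 to 4 without single arrays. Without single arrays, the counts were 6 to 8 in *oxt6* minus the complemented plants and 7 throughout in the complemented plants minus the wild-type.

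Among the other named differences that kept their sign, the covariate ended 31 calls and added 11. It turned the sign of THI2.1 (-1.40 in *oxt6* minus the complemented plants and 1.601 in the complemented plants minus the wild-type), RCA (0.35 and -0.55) and CAT3 (0.19 and -1.16), of CAT2 (0.14) and MDAR4 (0.13) in *oxt6* minus the complemented plants, and of APX3 (-0.067) in the complemented plants minus the wild-type. Of these turned differences, limma called both of THI2.1 (adjusted p = 0.0206 and 0.00887), neither of which was called without the covariate. It also called that of CAT3 in the complemented plants minus the wild-type (adjusted p = 0.0121). The other turned differences lost their calls. Within groups, only the *oxt6* arrays spread widely in the 3′ over 5′ signal, with replicate 1 apart from the other 2. The covariate fit therefore cannot tell that signal from the group in comparisons with the complemented plants. Of the 10 probe sets most like OPR3, 3 to 9 remained without single arrays. Precision is limited by the 2 arrays of each line and the 3 or 4 of each group, and by the floor, at which 11 to 2935 probe sets of an array stand.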
